A study of Mus musculus with 2 samples.

Results

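Among the cells of subcutaneous ovarian tumors, 201 were monocyte-like: they held the RNA of blood monocytes and little or none of the complement component C1q, whose subunit genes mark tumor macrophages. These 201 cells were found among 4403 cells that passed the quality limits, out of 6768 cell barcodes in all, and 123 came from the WT library and 78 from the TSK library. A cell was a member when it held at least 2 UMIs of Lyz2, at least 2 UMIs of Ccr2, Ly6c2, Plac8 and Chil3 together, fewer than 3 UMIs of C1qa, C1qb and C1qc together, no UMI of Cd3d, Cd3e, Cd3g or Trac, and less than 0.5% of its UMIs in S100a8 and S100a9, the neutrophil calprotectin genes. A UMI (unique molecular identifier) stands for one captured RNA molecule. The members were thus chosen by the measured UMIs of these genes, whose levels are given below only as a description.

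Tumors were grown under the skin of female C57BL/6 mice, 6 to 8 weeks old, from the syngeneic ovarian cancer line SO, which lacks p53 and carries myc and H-ras. TSK (tight skin) mice carry a mutation of Fbn1, the gene of the matrix protein fibrillin-1, in all their cells, and their connective tissue is fibrotic; WT mice lack the mutation, and both groups carried the same injected cancer cells. The tumors of each genotype were pooled before dissociation with collagenase, hyaluronidase and trypsin, red and dead cells were depleted, and no cell type was selected. Each pool gave 1 droplet library (10x Genomics, 3′ ends). With 1 library per genotype, no test between WT and TSK was possible, and every interval below covers counting error only. A gene is called higher or lower where its level in the summed UMIs of the members, as CPM (UMIs of a gene per 1000000 UMIs), differed at least 2-fold between the libraries.

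Classical monocytes are made in the bone marrow, leave it through the chemokine receptor CCR2 and enter inflamed tissue and tumors, where they turn into macrophages or dendritic cells. In the mouse they carry the surface protein Ly6C, which Ly6c2 encodes. In the blood some of them turn instead into nonclassical monocytes, which patrol the vessel wall. In tissue, monocytes respond to interferons, low oxygen and damage signals, and as they mature into macrophages they lose Ly6C and acquire lysosomal, lipid-handling and C1q genes.

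The label was checked against markers in 3 other classes of cells from the same libraries: C1q macrophages, which differed from the members in the C1q limit (3 UMIs or more, and no minimum for the monocyte genes; 160 WT and 289 TSK cells), neutrophils (16 and 113 cells) and T cells (446 and 266 cells). Of the rule genes, Lyz2, which encodes lysozyme, stood at 3440.1 CPM in WT and 2592 in TSK members. Ccr2 stood at 501 and 581 CPM, against 300.3 and 96.5 in the C1q macrophages. Plac8 stood at 1633 and 1329 CPM in the members and at 161 and 86.2 in the C1q macrophages. Ly6c2 stood at 454 and 279.9 CPM in the members, and it was also abundant in the T cells (50.8% and 43.0% of them, thinned to 2000 UMIs, held it, against 47.1% and 36.1% of the members), so that it did not set the members apart from lymphocytes by itself.

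Among genes that the rule did not use, Hp set the members apart from the C1q macrophages and the T cells. Hp, which encodes haptoglobin and is active in monocytes and neutrophils, was found in 23.1% of WT and 22.2% of TSK members after each cell was thinned to 2000 UMIs, against 1.30% and 2.57% of the C1q macrophages and 0.227% and 0.435% of the T cells, a class not known to express it; without thinning the members' shares were 47.2% and 34.6%. The median cell of the T cells held 6879 UMIs in WT and 3180 in TSK. Itgam, the integrin chain CD11b of myeloid cells, stood at 306 and 365 CPM in the members. The 18 neutrophil genes summed to 564 UMIs in WT and 257 in TSK members, and 62 and 30 members held at least 2 of these UMIs. Most came from Slpi, at 306 and 180 UMIs, while the granule genes Camp, Ngp and Ltf had none and Ly6g had 1. Siglech and Ccr9, which mark plasmacytoid dendritic cells, had none either. Other dendritic cell genes were found: Cd209a, Clec9a, Flt3 and Xcr1 had UMIs in some WT members, as given below. The 20 dendritic cell genes summed to 2108 CPM in WT and 1111 CPM in TSK members, most of it from Cst3. In C1q macrophages they summed to 1372 and 1052 CPM.

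**Figure D1:**
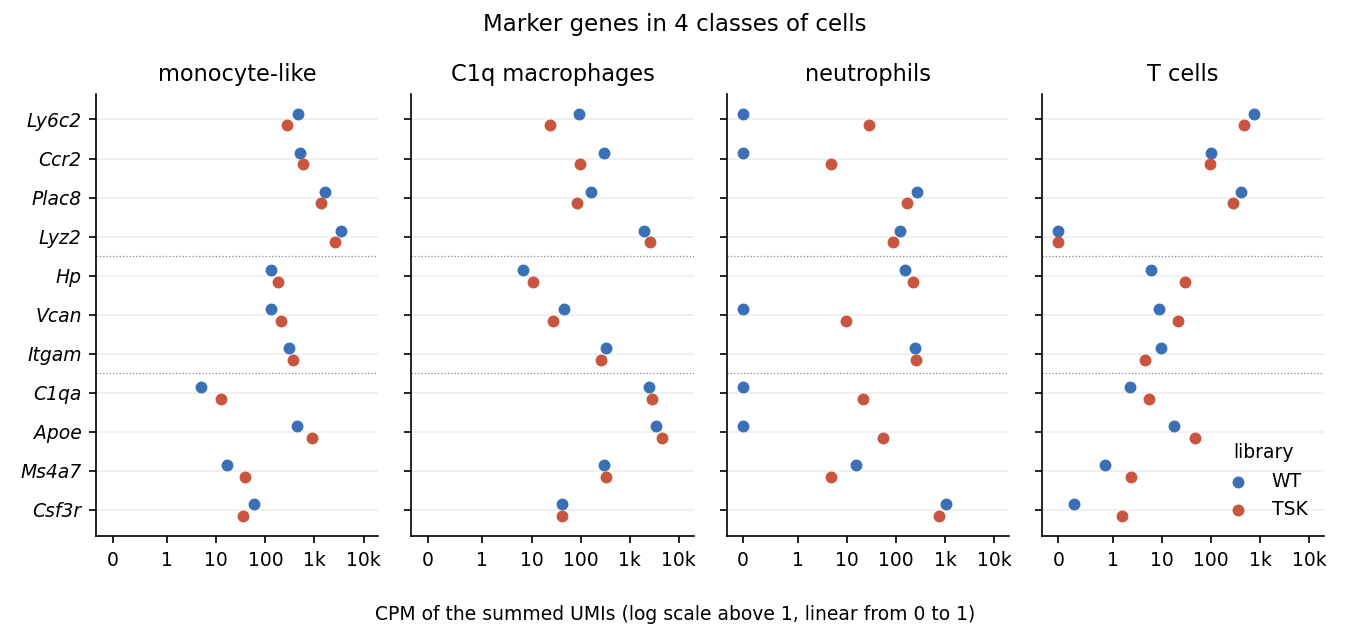
CPM of 11 marker genes in monocyte-like cells, C1q macrophages, neutrophils and T cells; each point is the summed UMIs of a class in the WT (blue) or TSK (red) library, on an axis that is logarithmic above 1 and linear from 0 to 1. The first 4 genes, C1qa and Csf3r belong to the rules that chose the classes; Hp, which does not, was higher in the members than in C1q macrophages in both libraries (130.1 and 182 CPM in the members).

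Depth differed between the libraries. The median member held 9438 UMIs and 2335 genes in WT (1434 to 35121 UMIs) and 5116 UMIs and 1878 genes in TSK (536 to 46530 UMIs), and the members' summed UMIs came to 1252578 and 482284. Ribosomal protein genes took 7.16% of the members' UMIs in WT and 12.4% in TSK. The shares were 5.53% and 11.1% in C1q macrophages and 10.1% and 17.1% in T cells, so this difference ran through the libraries. With these genes left out of the total, 235 genes were called higher in TSK and 89 lower, against 190 and 100 with them. The cause of the difference was not tested. The 2 libraries had 263 barcodes in common, which were left out; none of them would have been a member.

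Just inside the limits of the rule, 7 WT and 7 TSK members held exactly 2 Lyz2 UMIs, and 34 and 32 cells with 1 Lyz2 UMI lay just outside. With 2 UMIs of the monocyte genes, 4 WT and 8 TSK cells lay inside, and with 1 UMI 11 and 6 lay outside. No C1q UMI at all was found in 99 WT and 64 TSK members, while 6 and 2 members held 2 C1q UMIs, and 2 and 1 cells were left out at 3. Only 1 cell, from TSK, was left out by the calprotectin limit alone.

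Some members also held RNA of other cell types. In 8 of them (5 WT and 3 TSK), markers of another cell type reached at least 5 UMIs. In WT, a pair of these cells held 455 and 104 UMIs of fibroblast markers such as Col1a1 and Dcn, a second pair held 124 and 62 UMIs of endothelial markers, and 1 held 23 UMIs of Kit, a receptor of mast cells and progenitors, with 200 UMIs of cell cycle genes. In TSK, 1 cell held 676 UMIs of fibroblast markers, 1 held 501 UMIs of endothelial and mural markers such as Acta2 and Tagln with 84 of fibroblast markers, and the deepest held 97 UMIs of cancer cell markers and 176 of cell cycle genes. Each of the 8 held between 2 and 71 Lyz2 UMIs. Together they took 9.07% of the members' UMIs in WT and 17.6% in TSK, and they carried 90.4% and 97.1% of all fibroblast marker UMIs found in the members. Doublets were not removed, and whether these cells were doublets was not tested; results are given with and without them where they differ.

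Over all members, several markers of other cell types were at or near 0. Even so, 65 of 123 WT and 25 of 78 TSK members held at least 2 UMIs of the markers of another type. These counts include Pecam1, Ccl5, Klrk1 and Cd4. Fibroblast markers were at 0 in 74 of 123 WT and 57 of 78 TSK members. The 4 T cell receptor genes were absent by the rule, and among markers it did not use, Cd8a, Gzma, Gzmb, Klrb1c and Ncr1 had no UMI and Nkg7 had 2, in 1 WT member. B cell markers summed to 42 UMIs in WT and 6 in TSK. Cancer cell markers summed to 13 UMIs in WT (110 of 123 members at 0) and 148 in TSK (48 of 78 at 0), of which 79.1% lay in the 3 TSK cells above. Endothelial and mural markers other than Pecam1, which monocytes also express, were at 0 in 114 of 123 and 74 of 78 members.

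In the WT library 8.53% of the kept cells were monocyte-like (123 of 1442; exact 95% interval 7.14 to 10.1%), and in the TSK library 2.63% were (78 of 2961; 2.09 to 3.28%). The binomial intervals did not overlap, and the log2 ratio of TSK over WT was -1.70 (-2.12 to -1.27). The rule uses counts, so depth bears on it in both directions. Its minimums are easier to meet in deeper cells, and its C1q and T cell limits are easier to meet in shallower ones. Applied after each cell was thinned to 2000 UMIs, the rule gave 96 and 58 members and a log2 ratio of -1.64. Leaving out the 8 members with many markers of another type gave -1.69.

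The size of the difference depended on what the members were counted against. Cancer-like cells (Lgals7 at 2 UMIs or more) took 6.38% of kept cells in WT and 35.8% in TSK, and without them the members came to 9.11% and 4.10%. Of all cells with 2 or more Lyz2 UMIs, 39.7% and 18.7% were members. C1q macrophages, by contrast, were 11.1% of kept cells in WT (9.52 to 12.8%) and 9.76% in TSK (8.71 to 10.9%), and of the 2 classes together the members were 43.5% in WT (37.6 to 49.5%) and 21.3% in TSK (17.2 to 25.8%). With an upper limit of 10000 UMIs, which removed 56 WT and 7 TSK members, the shares were 7.28% and 4.17% of the cells kept. In every count the TSK share was lower. A lower share of one class and a higher share of others cannot be told apart in such data.

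**Figure D2:**
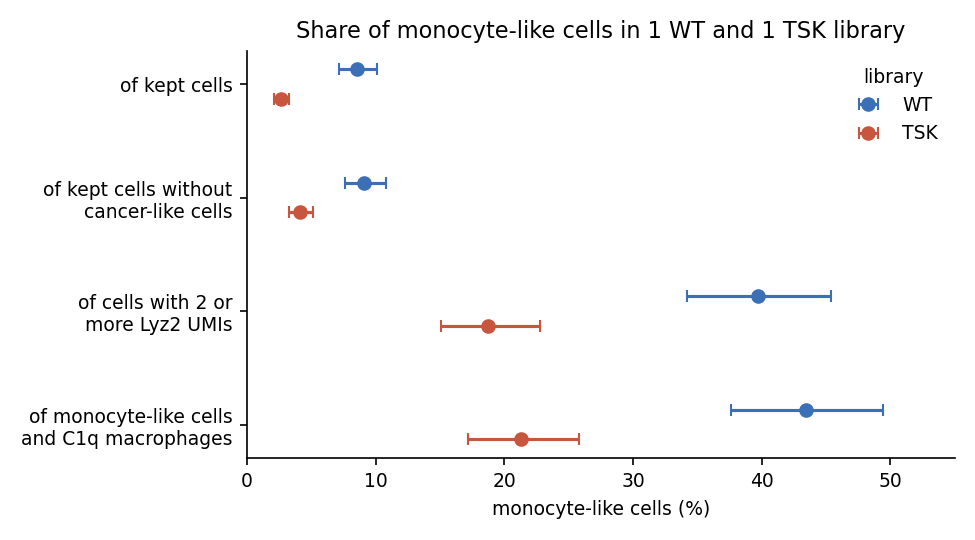
Monocyte-like cells as a percentage of 4 denominators in the WT (blue) and TSK (red) library; points are the shares and bars their exact binomial 95% intervals. The TSK share lies below the WT share against each denominator, at 2.63% against 8.53% of kept cells and at 21.3% against 43.5% of monocyte-like cells and C1q macrophages together.

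Against the C1q macrophages, a difference that includes the rule genes themselves and is described without a test, the members were higher in Hp (log2 ratio 4.26 in WT and 4.11 in TSK), in the secreted protease inhibitor gene Slpi (4.35 and 4.27), which was higher still in the neutrophils (929 and 912 CPM against 244 and 373 CPM in the members), in the aspartic protease gene Napsa (3.07 and 3.76), in Gsr, which encodes glutathione reductase (2.61 and 2.32), and in S100a4 (1.87 and 2.23). They were lower in the chemokine gene Ccl8 (-7.73 and -6.65), in the adhesion molecule gene Vcam1 (-3.75 and -4.03), in Gas6, a ligand of phagocytic receptors (-4.06 and -3.43), and in Ms4a7 (-4.18 and -3.05). The macrophage maturation genes had a median log2 ratio of -1.31 in WT and -1.28 in TSK, and the classical monocyte genes one of 0.41 and 0.71, against -0.07 and 0.00 over the 4320 genes counted.

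Between WT and TSK members, 2640 genes had at least 100 UMIs over both libraries. Of these, 190 were at least 2-fold higher in TSK (7.2%) and 100 at least 2-fold lower (3.79%), and the median log2 ratio was 0.13. Scaled so that this median is 0, 127 were higher and 152 lower, and without the cell with most UMIs of each gene in each library, 89 were higher and 130 lower, so the balance of the calls turned under both. Without the 8 members with many markers of another type, 88 were higher and 78 lower, of 2349 genes. Of the 10 genes with the largest ratios, only Lyz1 was still among the 10 largest without these cells. The other 9 included the matrix genes Bgn, Sparc, Postn and Col3a1 (94.3% of the TSK UMIs of Col3a1 in 1 cell), the contractile gene Cald1, the chaperone genes Hspb1 and Hspd1, and Trip4 and Hist1h2ap. Tagln and Acta2, which encode smooth muscle proteins, had 298 and 203 UMIs in TSK against 4 and 4 in WT, and 99.7% and 99.5% of the TSK UMIs lay in 1 cell. In TSK, 1 cell held 85.1% of the UMIs of Trip4, 88.0% of those of Hspb1, 81.8% of those of Hist1h2ap and 74.8% of those of Cald1, so these ratios rest on few cells. Cald1 and Hist1h2ap were also more than 2-fold higher in TSK in C1q macrophages (log2 ratios 3.52 and 3.81) and in T cells (2.68 and 2.68).

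Without these cells, the largest ratio was again that of Lyz1, found in only 2 WT and 3 TSK members, and several of the genes that followed were found in more members. Cd80, which encodes a costimulatory ligand of T cells, had 77 UMIs in WT and 110 in TSK, in 42 and 34 cells, at a log2 ratio of 2.03 (1.6 to 2.47). Ecm1, a secreted matrix protein gene, had 101 and 136 UMIs (1.95, 1.57 to 2.33). Clec4n, which encodes the fungal receptor dectin-2, had 63 and 87 UMIs (1.98, 1.5 to 2.48), and Lpl, the lipoprotein lipase gene, 47 and 72 UMIs in 13 and 9 cells (2.13, 1.58 to 2.70). In C1q macrophages the log2 ratios of the same genes were 0.56 for Cd80, -0.13 for Ecm1, 0.20 for Clec4n and 0.19 for Lpl. In T cells, which are not known to make most of these products, they were 1.05 for Cd80, 0.20 for Ecm1, 1.43 for Clec4n and 1.24 for Lpl, so that all but Ecm1 were also at least 2-fold higher in the T cells of the TSK library, and the part of free RNA in the members' ratios was not tested.

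At the other end, Ifi205, an interferon-inducible gene of the DNA sensor family, had 211 UMIs in 54 WT members and 11 UMIs in 10 TSK members (log2 ratio -2.88, -3.91 to -2.02), and it was lower in C1q macrophages too (-1.77). Irf9, a subunit of the interferon-activated transcription factor ISGF3, had 396 and 18 UMIs, but 86.4% of the WT UMIs lay in 1 cell. Socs1, an inhibitor of cytokine signalling, had 110 and 12 UMIs (-1.82, -2.82 to -0.96). Hbegf, a growth factor gene, had a log2 ratio of -1.52 over all members and of -2.74 (192 and 10 UMIs, -3.83 to -1.83) once the 8 cells were left out. Over the 17 alternatives tried, Ifi205 ran from -3.02 to -1.22 and Socs1 from -2.32 to -1.68.

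Interferon-stimulated genes were lower in the TSK members. Of 27 counted genes of the group, 6 were at least 2-fold lower and none at least 2-fold higher (3.79% and 7.2% of all genes). A log2 ratio below 0 was found in 22 of the 27, against 1102 of all 2640 genes. The median was -0.56, against 0.13 over all genes. The members' summed level of the group came to 5046 CPM in WT and 3284 CPM in TSK. In C1q macrophages it came to 4300 and 2939 CPM (median -0.36), and in T cells to 2877 and 2375 CPM, so that a lower level in the TSK library was measured in all 3 classes.

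The 6 genes that were at least 2-fold lower were Ifi205, described above, Rsad2, Irgm1, Slfn5, Gbp5 and Ifi209. Rsad2 encodes the antiviral enzyme viperin; it had 282 UMIs (225 CPM) in WT and 38 UMIs (78.8 CPM) in TSK, a log2 ratio of -1.51 (-2.04 to -1.02). Irgm1, an immunity-related GTPase, had 245 and 27 UMIs (-1.80, -2.44 to -1.23). Slfn5, of the Schlafen family, had 523 and 80 UMIs in 81 and 27 cells (-1.33, -1.69 to -0.99). No single cell held more than 34.2% of the UMIs of these 3 genes in either library. Gbp5, a guanylate-binding protein, had 94 and 14 UMIs (-1.37, -2.30 to -0.55), and Ifi209, of the same family as Ifi205, 222 and 38 UMIs (-1.17, -1.71 to -0.67); 58.6% of the 90-base windows at the end of the Ifi209 transcripts also occur in Ifi214, so reads of these genes may be split or lost. In T cells the log2 ratio of Irgm1 was -1.36, and those of the other 5 genes lay between -0.54 and 0.18. Over the 17 alternatives Irgm1 stayed past 2-fold (-1.94 to -1.17), while Slfn5 (-1.46 to -0.63), Gbp5 (-1.51 to -0.39) and Ifi209 (-1.47 to -0.50) did not, and Rsad2 (-1.80 to 0.12) reached 0.12 where the rule was applied to thinned cells.

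Just under the 2-fold limit lay Gbp2 (429.5 and 216 CPM, log2 ratio -0.99), Irf1, a transcription factor induced by interferon gamma (361 and 182 CPM, -0.98), and Ifi203 (265 and 139 CPM, -0.93). Other genes of the group were closer to equal: Ifit1 stood at 87.0 and 80.9 CPM, Irf7 at 107 and 97.5 CPM, and Ifit2 at 55.9 and 62.2 CPM, while Oasl2 (110.2 and 74.6 CPM) lay lower, and Isg15 (54.3 and 33.2 CPM), Ifit3 (18.4 and 12.4 CPM) and Usp18 (24.7 and 14.5 CPM) were under the limit for counting. The chemokine gene Cxcl10, which interferon gamma induces, was on the other side of 0, with 182 and 278 CPM (0.61, 0.29 to 0.92). The median of the group was computed under some of the settings only, not with the rule applied to thinned cells. It lay between -0.73 and -0.39. The number of genes at least 2-fold lower depended more on the setting: it was 2 of 27 with equal weight of cells and 10 of 27 with median scaling, and without members holding 2 or more UMIs of other cell types' markers 5 of 14 were lower and 1 was higher.

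Promoters of 5 of the 6 genes hold 2 copies of GAAA with any 2 bases between them (TTTC on the other strand), the core of the element that interferon-activated factors bind, within the 250 bases before the start of the RefSeq gene. They are shown because this motif is the feature that the group has in common outside the expression data. Each line gives the stretch around the match, 5′ to 3′ on the strand of the gene, in the build GRCm38.p6, with the match in capitals; in Irgm1 a pair of matches overlap.
Rsad2, chr12:26456533-26456602, minus strand: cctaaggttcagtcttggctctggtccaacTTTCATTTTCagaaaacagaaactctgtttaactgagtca
Ifi205, chr1:174031850-174031919, minus strand: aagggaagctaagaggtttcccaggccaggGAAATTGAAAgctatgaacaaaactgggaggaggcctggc
Gbp5, chr3:142496739-142496808, plus strand: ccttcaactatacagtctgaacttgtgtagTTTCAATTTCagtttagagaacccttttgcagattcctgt
Irgm1, chr11:48871421-48871480, minus strand: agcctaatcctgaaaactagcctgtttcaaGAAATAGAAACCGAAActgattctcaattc
Slfn5, chr11:82951917-82951986, plus strand: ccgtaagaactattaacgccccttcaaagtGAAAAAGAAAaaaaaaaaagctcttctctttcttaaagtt

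The matches began between 30 and 165 bases before the start, and Ifi209 had none. Of the 29 genes of the group with a RefSeq promoter, 20 held the motif (69.0%), against 936 of 27025 genes overall (3.46%). Of the 16 other counted genes of the group that have a RefSeq promoter, 10 held it. The motif thus goes with membership of the group, which was assembled from known interferon targets, and a match is not evidence of binding in these cells.

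MHC class I genes, which present peptides to CD8 T cells and are also interferon targets, lay slightly lower in TSK: none of 10 was past 2-fold, 8 had a log2 ratio below 0 and the median was -0.45. B2m, the invariant light chain, had 3086 CPM in WT and 2082 CPM in TSK (-0.57, -0.67 to -0.47). Nlrc5, the transactivator of the class, had 129 and 68.4 CPM (-0.91, -1.5 to -0.36). The median in C1q macrophages was -0.72.

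MHC class II genes did not share the lower level that the macrophages showed. H2-Aa stood at 1456 CPM in WT members and 1545 CPM in TSK members (log2 ratio 0.09, -0.04 to 0.21), and H2-Eb1 at 1143 and 1153 CPM (0.01, -0.13 to 0.15). None of the 6 counted genes was past 2-fold. In the C1q macrophages H2-Aa stood at 3129.6 and 1458 CPM. There 6 of 7 counted class II genes were at least 2-fold lower in TSK, against 135 of all 6382 genes counted in that class. Their median log2 ratio was -1.14, while that of the members was 0.05. With 1 library each, this difference between the classes could not be tested. Leaving out the 8 members with many markers of another type moved the members' median to 0.44, and an upper limit of 10000 UMIs moved it to 1.00.

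**Figure D3:**
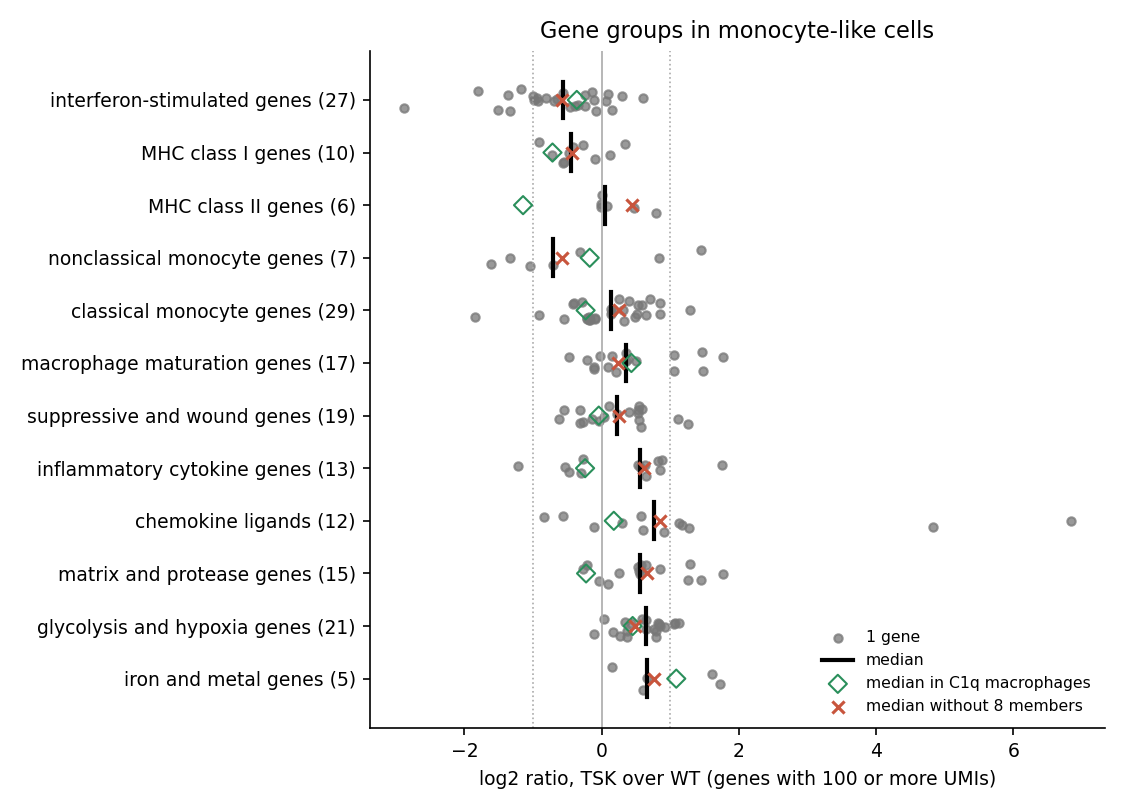
Log2 ratios of TSK over WT of the genes with 100 or more UMIs in 12 gene groups (number of genes in brackets) in monocyte-like cells; grey points are genes, black bars medians, red crosses medians without the 8 members that held many markers of another cell type, and green diamonds medians in C1q macrophages. Interferon-stimulated genes lie mostly below 0 (median -0.56), and chemokine ligands (0.76), glycolysis and hypoxia genes (0.65) and matrix genes (0.56) mostly above it.

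Genes of classical monocytes were close to equal. Of 29 counted genes, 1 was at least 2-fold higher (Fn1) and 1, not reported here, at least 2-fold lower, with a median log2 ratio of 0.14. Cd14, the coreceptor for bacterial lipopolysaccharide, had 836 and 1257 CPM (0.59, 0.44 to 0.73), and Ms4a4c had 267 and 182 CPM (-0.55, -0.91 to -0.21). The transcription factor gene Spi1, which encodes PU.1, had 199.6 and 249 CPM (0.32, -0.01 to 0.64), and Cebpb had 972 and 1219 CPM (0.33, 0.18 to 0.47). Of the rule genes, Ly6c2 differed by -0.70 and Chil3, a chitinase-like protein gene of marrow monocytes, by -0.74, and neither was past 2-fold.

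Few genes of nonclassical monocytes were counted. Of 7, 3 were at least 2-fold lower and 1 was higher, and the median was -0.71. Without the 8 members with many markers of another type the balance turned, with 1 of 6 lower (Itga4), 2 higher (Dusp16 and Ear2) and a median of -0.57. Itga4, the integrin chain of VLA-4, had 223 UMIs in 58 WT members and 28 UMIs in 20 TSK members (-1.62, -2.24 to -1.05), and Itgal, the integrin chain of LFA-1, 182 and 34 UMIs (-1.04, -1.62 to -0.51; -0.86 without the 8 members). Under the limit for counting lay Ace, with 68 UMIs in 24 WT and 10 UMIs in 5 TSK members, and Treml4, with 43 and 5 UMIs. Fabp4, the third gene past 2-fold, is no guide to the class, since 68.5% of its WT UMIs and all of its TSK UMIs lay in 1 cell each. Dusp16, a phosphatase of stress kinases, was the gene that was higher, with 130 and 137 UMIs in 57 and 44 cells (1.45, 1.10 to 1.81). Nr4a1 and Cx3cr1, the factor and the receptor that define nonclassical monocytes, had log2 ratios of -0.31 and -0.12.

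Several chemokine ligand genes were higher in TSK. Of 12 counted genes, 5 were at least 2-fold higher and none lower (7.2% and 3.79% of all genes), and the median log2 ratio was 0.76, against 0.18 in C1q macrophages. With at most 10000 UMIs per cell 4 of 11 were higher and 2 lower, and without the top cell of each gene 5 of 12 were higher and 1 lower. Cxcl2, which attracts neutrophils, had 844 UMIs (674 CPM) in 50 WT members and 787 UMIs (1632 CPM) in 48 TSK members, a log2 ratio of 1.28 (1.13 to 1.42); in T cells it stood at 24.4 and 105 CPM (2.11), a larger ratio at a lower level. Ccl6 had 489 and 1069.9 CPM (1.13, 0.96 to 1.30), and Cxcl16, which draws in T cells with CXCR6, had 90.2 and 203 CPM (1.17, 0.77 to 1.57); in T cells the log2 ratios were 1.10 for Ccl6 and 0.35 for Cxcl16. Cxcl3 was found in few cells: 9 UMIs in 5 WT members and 99 UMIs in 8 TSK members (4.84, 3.85 to 6.01). Over the 17 alternatives Cxcl2 ran from 0.84 to 1.47, Cxcl16 from 0.70 to 2.18 and Ccl6 from 0.19 to 1.32.

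Pf4, which encodes platelet factor 4 and is also made by resident macrophages, had no UMI in 123 WT members, which allows up to 2.40 CPM, and 133 UMIs in 11 of 78 TSK members (276 CPM); with 3 UMIs taken for WT the log2 ratio is 6.85, and the exact interval starts at 6.53. Over the 17 alternatives it ran from 2.95 to 7.11. In C1q macrophages Pf4 stood at 106 and 622 CPM, and in T cells, which are not known to make it, at 0.284 and 49.6 CPM (1 and 65 UMIs, log2 ratio 7.45). The difference was thus measured in all 3 classes, and the part of free RNA in the members' level was not tested. Not all ligands went this way: Ccl2, the ligand of CCR2, had 216 and 147 CPM (-0.56, -0.95 to -0.17), Ccl4 had 174 and 97.5 CPM (-0.84, -1.32 to -0.38; -1.15 to 0.33 over the alternatives), and Ccl24 had 676 and 626 CPM in only 26 and 11 members. Among the receptors, Ccrl2 was higher (53.5 and 147 CPM, 1.46, 0.96 to 1.96) and Cxcr4, which holds monocytes in the marrow, lower (134 and 62.2 CPM, -1.11, -1.72 to -0.54). The log2 ratio of Ccr1 was 0.11.

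Matrix and protease genes were also higher in TSK, with 4 of 15 past 2-fold, none lower and a median of 0.56; the median in C1q macrophages was -0.23. Fn1, the fibronectin gene, had 1183 UMIs (944 CPM) in 92 WT members and 1115 UMIs (2312 CPM) in 60 TSK members, a log2 ratio of 1.29 (1.17 to 1.41), and at 2000 UMIs per cell it was found in 45.5% and 70.8% of the members, against 3.17% and 17.8% of the T cells. The T cell share thus differed between the libraries as well, and the part of free RNA in the members' level was not tested; in C1q macrophages Fn1 stood at 1661 and 1471 CPM, and in T cells at 111 and 472 CPM (log2 ratio 2.09). Spp1, which encodes osteopontin, had 814 and 1949 CPM in 43 and 45 members (1.26, 1.13 to 1.39); here the T cell shares were 5.22% and 31.3%, against 19.8% and 43.1% of the members, and the T cell levels 106 and 534 CPM (2.33). Ecm1, at 85.4 and 292 CPM, and Mmp12 were the others past 2-fold, but 97.5% and 73.8% of the Mmp12 UMIs lay in 1 cell of each library. Thbs1 (1226 and 1775 CPM, 0.53) and Vcan (131 and 205 CPM, 0.65), both made by monocytes in wounds, stayed under the limit. Over the 17 alternatives Ecm1 stayed past 2-fold (1.37 to 2.19), and Fn1 ran from 0.93 to 1.61 and Spp1 from 0.77 to 1.45.

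Glycolysis and hypoxia genes lay higher in TSK by a step that nearly all of them shared. Of these genes, 20 of 21 had a log2 ratio above 0, against 1538 of all 2640 genes. The median was 0.65, against 0.13 over all genes, and 3 were past 2-fold, Hk2, Tpi1 and Mif (7.2% of all genes). With median scaling 1 of the 21 was past 2-fold and the median was 0.53. Hk2, a hexokinase gene, had 205 and 425 CPM (1.05, 0.78 to 1.32), Ldha, the lactate dehydrogenase gene, 329.7 and 589 CPM (0.84, 0.61 to 1.06), and Slc2a1, the glucose transporter gene, 174 and 226 CPM (0.38, 0.03 to 0.72). Without the 8 members none of the 21 was past 2-fold and the median was 0.49. The C1q macrophages had a median of 0.45, and the summed level of the group, 4921 CPM in WT and 8070 CPM in TSK members, was 3018 and 5900.3 CPM in T cells, so that a higher level was measured in all 3 classes.

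Of the iron and metal genes, 2 of 5 were past 2-fold and the median was 0.67. Both were metallothioneins, which bind zinc and copper: Mt1 had 558 and 1698 CPM (1.61, 1.46 to 1.75), and Mt2 had 110.2 and 363 CPM (1.72, 1.39 to 2.05). The ferritin heavy chain gene Fth1 had 4316 and 6853 CPM (0.67, 0.60 to 0.73). In C1q macrophages the log2 ratios of Mt1 and Mt2 were 1.64 and 1.58, and in T cells 3.36 (115 and 1183 CPM) and 2.19 (72.5 and 331 CPM). Mt2 stayed past 2-fold under the 17 alternatives (1.24 to 2.01), and Mt1 ran from 0.72 to 1.69.

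**Figure D4:**
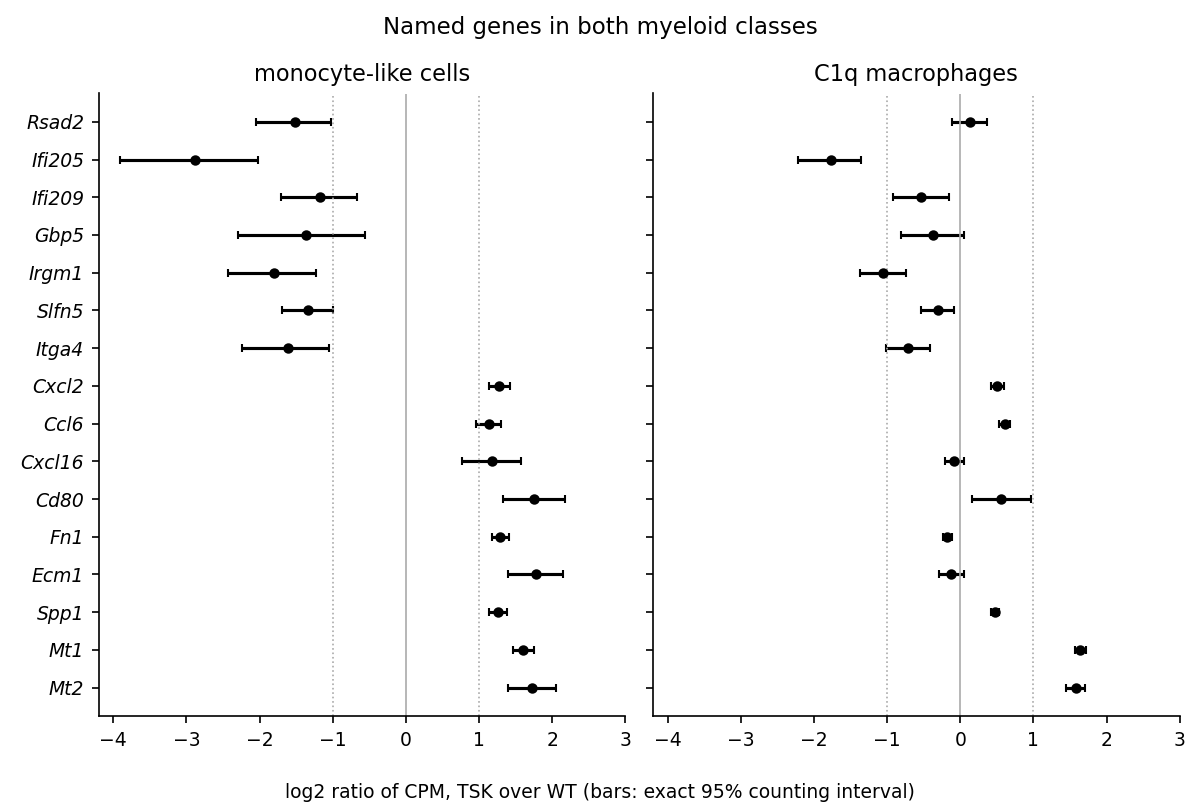
Log2 ratio of CPM, TSK over WT, of 16 named genes in monocyte-like cells (left) and C1q macrophages (right); points are the ratios, bars exact 95% counting intervals, and dotted lines mark 2-fold. Rsad2 differs in the members (-1.51) and not past 2-fold in the macrophages (0.13), Cd80, Fn1 and Ecm1 likewise on the other side, and Mt1 and Mt2 differ by about the same amount in both classes (1.61 and 1.64 for Mt1).

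Suppressive and wound genes gave a mixed picture, with 2 of 19 past 2-fold (Spp1 and Nos2) and none lower (7.2% and 3.79% of all genes). Their median was 0.22, close to the 0.13 over all genes. Arg1, arginase, had 1987 and 2136 CPM (0.10, -0.00 to 0.21), in 50 of 123 and 42 of 78 members. Cd274, which encodes the checkpoint ligand PD-L1, had 323 and 209 CPM (-0.62, -0.95 to -0.31), and Vegfa had 235 and 274 CPM (0.22). Nos2, the inducible nitric oxide synthase gene, had 66 and 55 UMIs in 13 and 14 members (1.11, 0.57 to 1.65).

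Of 13 inflammatory cytokine genes, 1 was past 2-fold on the higher side, Cd80, and 1 on the lower, Casp4 (7.2% and 3.79% of all genes). Casp4, the sensor of lipopolysaccharide inside the cell, had 246 and 106 CPM (-1.22, -1.67 to -0.79). The median of the group was 0.56, against 0.13 over all genes. Il1b had 841 and 1553 CPM in 95 and 63 members (0.88, 0.75 to 1.02), and in C1q macrophages 409 and 256 CPM (-0.67). Tnf was found at 43 UMIs in 25 WT members and 3 UMIs in 3 TSK members, too few for a firm ratio.

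Genes that rise as monocytes become macrophages were not lower in the members of TSK: 5 of 17 were past 2-fold on the higher side and none on the lower, with a median of 0.35, against 0.43 in C1q macrophages. Apoe, which carries lipid out of macrophages, had 438 and 910.3 CPM (1.05, 0.87 to 1.24), against 3435 and 4642 CPM in the C1q macrophages. Ctsd, a lysosomal protease gene, had 224 and 467 CPM (1.06, 0.80 to 1.32), and Pltp, a phospholipid transfer protein gene, had 45 and 59 UMIs (1.77, 1.18 to 2.36). The tetraspanin gene Cd63 was past 2-fold with the 8 members (1.47) and not without them (0.66). Csf1r and Adgre1, the receptor and the surface marker of the lineage, had log2 ratios of 0.20 and -0.11. Trem2, under the limit for counting, had 22 UMIs in 15 WT members and 45 UMIs in 28 TSK members. Retnla, a gene of resident macrophages, had 4 UMIs in 4 WT members and 167 UMIs in 4 TSK members, 56.3% of them in 1 cell.

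Of 5 counted dendritic cell genes, 2 were at least 2-fold lower in TSK, Ifi205 and Wdfy4 (132 and 20 UMIs, -1.35, -2.10 to -0.66), none was higher and the median was -0.87. The 20 genes of the group summed to 2108 CPM in WT and 1111 CPM in TSK, most of it from Cst3, a protease inhibitor gene that macrophages express too (1344 and 744 CPM). Clec9a, Flt3 and Xcr1, which mark conventional dendritic cells and their precursors, had 17, 13 and 9 UMIs in WT members, in 4, 6 and 3 cells, and none in TSK, where a count of 0 allows up to 6.22 CPM. Cd209a, of monocyte-derived dendritic cells, had 81 UMIs in 12 WT members and 6 UMIs in 5 TSK members (-2.38, -3.87 to -1.19). Among the 16 counted stress genes, which respond to tissue dissociation, 1 was past 2-fold (Dnajb1, with 66.7% of its TSK UMIs in 1 cell) and the median was -0.13; Fos stood at 695 and 669.7 CPM. Lipid handling genes had 3 of 13 past 2-fold on the higher side, Apoe, Lpl and Pltp, and Fabp4 on the lower. Of the 4 counted cell cycle genes 1 was past 2-fold, Tubb5, which encodes a tubulin of all cells, while Pcna stood at 108 and 99.5 CPM.

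Single members differed widely within each library. After thinning to 2000 UMIs, which left out 2 WT and 6 TSK members, the median member held 8 interferon-stimulated UMIs in WT (0 to 53) and 6 in TSK (0 to 50), and 8 of 121 WT and 3 of 72 TSK members held over 30. For MHC class II genes the medians were 2 (0 to 97) and 11.5 (0 to 85), and 21 and 17 members held over 30. At least 1 H2-Aa UMI was seen in 40.5% of members in WT and 58.3% in TSK, and in 2.27% and 2.17% of T cells. The median member held 16 and 25.5 UMIs of matrix genes, 4 and 10 of chemokine ligands, 7 and 13 of glycolysis and hypoxia genes, and 12 and 22 of iron and metal genes. For each of these groups the ranges of the libraries overlapped over most of their length.

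**Figure D5:**
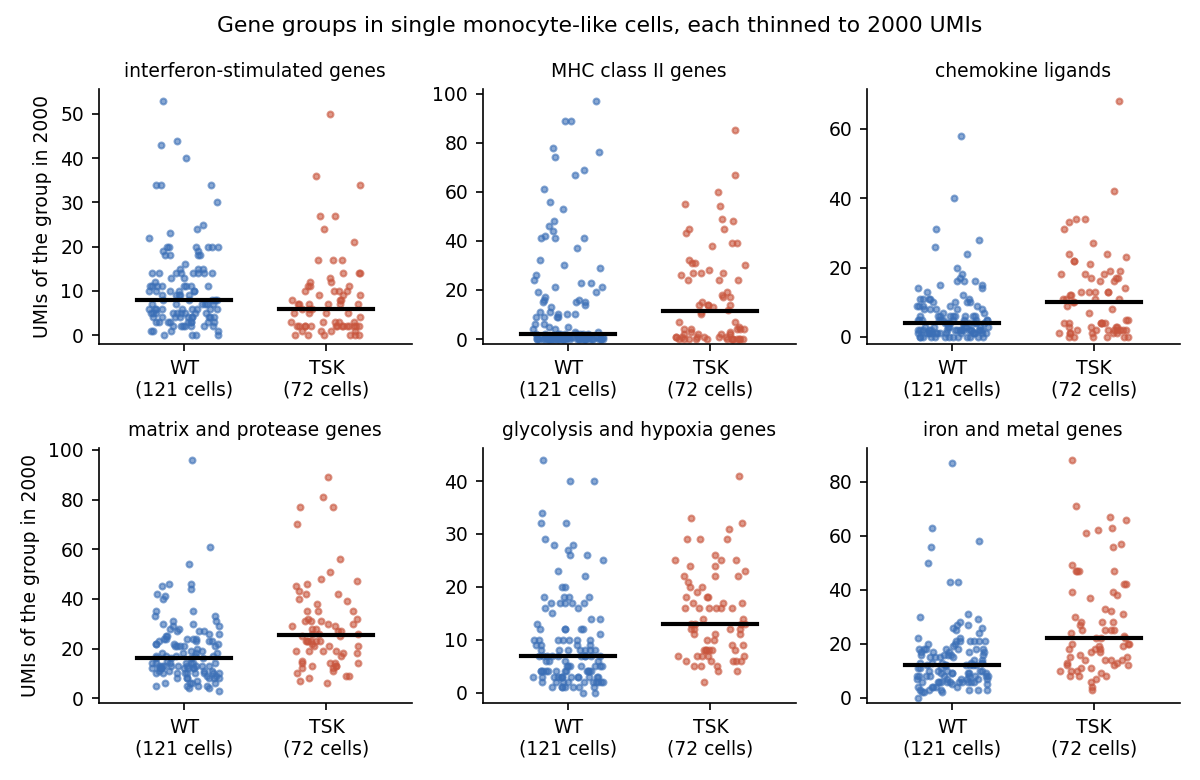
UMIs of 6 gene groups in single monocyte-like cells, each thinned to 2000 UMIs; every point is a cell of the WT (blue, 121 cells) or TSK (red, 72 cells) library, and black lines are medians. Cells overlap widely between the libraries in every group, and the medians run from 2 to 11.5 for MHC class II genes and from 8 to 6 for interferon-stimulated genes, WT to TSK.

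Some groups went together from cell to cell. Over the thinned members, UMIs of glycolysis and hypoxia genes and of suppressive and wound genes, groups with no gene in common, had a Spearman rho of 0.68 in WT (121 cells) and 0.55 in TSK (72 cells). The rho of glycolysis and hypoxia genes with iron and metal genes was 0.47 and 0.56. Classical monocyte genes and MHC class II genes ran against each other, at -0.42 and -0.26. Interferon-stimulated genes went with MHC class I genes (0.35 and 0.40) and had a rho of -0.01 and 0.01 with MHC class II genes. Cells of a library share its preparation and depth, and these values describe the cells of 2 libraries only.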

How the data were processed

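2 droplet libraries were analysed, 1 WT and 1 TSK, each from the pooled subcutaneous SO tumors of its genotype. For each, the authors deposited raw UMI counts per gene and barcode without normalization; the matrix headers name Cell Ranger 7.1.0 and the submitters' processing notes Cell Ranger 7.1.1 and mm10. Whether introns were counted is not given in the sources used here.

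Cells with at least 200 genes, at least 500 UMIs and at most 10% of UMIs in mitochondrial genes were kept, with no upper limit, and barcodes found in both libraries were left out. The libraries held 21225411 UMIs in 2332 barcodes (WT) and 48296765 UMIs in 4436 barcodes (TSK), of which 1442 and 2961 were kept. Members were chosen by the rule stated at the start. C1q macrophages for comparison had at least 2 Lyz2 UMIs, at least 3 C1q UMIs, no T cell gene and under 0.5% of UMIs in S100a8 and S100a9; neutrophils had 0.5% or more, a Csf3r UMI, under 3 C1q UMIs and no T cell gene; T cells had at least 2 UMIs of Cd3d, Cd3e, Cd3g and Trac and no Lyz2. UMIs were summed per class and library and divided by their total. Shares have exact binomial, sums exact Poisson and ratios exact conditional 95% intervals; a count of 0 was taken as 3 UMIs in ratios. Genes were counted from 100 UMIs over both libraries and called at 2-fold. The members and the gene lists were chosen with earlier results of these data known. Every gene of the lists could be named, and also the 10 largest and 10 smallest ratios (at least 10 UMIs in each library), the 5 with most UMIs in 1 library and under 10 in the other in each direction, the 10 highest and 10 lowest against C1q macrophages, and the 10 with the largest spread over members; Hbegf and Clec4n, which ranked among the extremes without the 8 cells, fall outside this rule and were chosen after their values were seen. Results of some genes are not reported here. Doublets were left in, and no doublet caller was run. Members with at least 5 UMIs of another type's markers, and members at 0 for them, were counted without Pecam1, Ccl5, Klrk1 and Cd4. Members with at least 2 UMIs of such markers were counted with these genes. Of 32285 gene identifiers, 99.8% matched GENCODE M21 (GRCm38); promoters were from RefSeq (GRCm38.p6). Alternatives changed the limits of the rule and the filter, the depth, the weight of cells, the scaling and the UMI minimum. The intervals were tested on simulated Poisson counts, the law that they assume, so the test does not cover UMIs that lie in few cells. Sums and intervals were computed with scipy 1.17.1 and numpy 2.4.6 under Python 3.11.15, tables were handled with pandas 2.3.3, and plots were drawn with matplotlib 3.10.9.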

Additional observations from a re-analysis of the deposited data

How the results depend on the processing

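The lower share of monocyte-like cells in TSK (log2 ratio -1.70) kept its direction in the 13 alternatives. It came to -0.80 with at most 10000 UMIs per cell, -1.17 without members holding 2 or more UMIs of markers of another cell type, -1.15 without cancer-like cells in the denominator and -1.08 among cells with Lyz2; the other alternatives lay between -1.82 and -1.58. The counts of genes past 2-fold (190 higher, 100 lower) depended more on the processing. They were 55 and 36 with at most 10000 UMIs per cell, 61 and 37 without members holding 2 or more UMIs of such markers, 16 and 10 when the rule was applied after thinning, 428 and 201 from 50 UMIs per gene and 1600 and 683 from 10 UMIs; fewer or more genes were tested in each. In alternatives chosen after seeing the data, 88 were higher without the 8 members holding many markers of another type and 89 without the top cell of each gene (130 lower). Another such alternative, without ribosomal protein genes in the total, gave 235 higher and 89 lower. Scaling by the median of gene ratios, which moves all log2 ratios by 0.13, left 127 higher and 152 lower, so that the split of calls turned.

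Of 104 named genes under up to 17 alternatives, 29 changed sign at least once, in 66 values; 13 of these values belong to genes past 2-fold as reported, and are given next. Of the other values, 1441 lay within the counting interval of the reported value and 276 outside it. Rsad2 came to 0.12 and Mmp12 to -0.12 under the thinned rule. Dnajb1 came to -0.43 with at most 10000 UMIs per cell, -1.59 under the thinned rule, -0.14 with equal weight of cells and -0.11 without its top cell. Fabp4 came to 0.38 with at least 4 UMIs of monocyte genes. Without members holding markers of other types Lyz1 came to -1.01 (its 0 TSK UMIs taken as 3) and Pecam1 to 0.18. Without their top cell Acta2 and Tagln came to -0.21, Col3a1 to -0.37 and Dcn to -1.38. No paired analysis was possible because each genotype had 1 library. Depth limits the TSK side most: a gene with no UMI among the 482284 UMIs of the TSK members may still stand at up to 6.22 CPM. The cause of the sign changes was not tested.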
